A study of Mus musculus with 20 samples.

Results

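Complex I (NADH:ubiquinone oxidoreductase) was read here through 44 of the 45 protein-coding genes that both count tables held and whose GENCODE symbol on GRCm38 starts with Nduf, out of 46649 genes present in both tables. The annotation had 51 such symbols. The paralogue Ndufa4l2, 4 processed pseudogenes and Ndufb1-ps, which the annotation lists as a non-coding RNA, were left out. Of the 44 members, 36 were subunits and 8 were assembly factors with the prefix Ndufaf. RNA came from hearts and from femur muscle of mice aged 20 weeks. The labels share no animal code between the tissues, and whether the animals differed is not stated. In each tissue 5 Taz-KD mice, which carry the inducible hairpin transgene ROSA26H1/tetO-shRNA:TAZ, were set against 5 WT C57BL/6N mice. Doxycycline was fed to WT and Taz-KD mice alike (625 mg/kg of chow), so all groups share the drug that induces the hairpin, and no group was left without it. The hairpin is not limited to 1 cell type, and the strain name C57BL/6N is given for WT only. The study calls its controls littermates where it reports body weight, and which of the sequenced mice share a litter is not given in the sources used here.

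Complex I takes electrons from NADH, passes them to ubiquinone and pumps protons across the inner mitochondrial membrane. It is L-shaped: a matrix arm holds the flavin and the iron-sulphur clusters, a membrane arm holds the proton pumps, and the pump subunits themselves are encoded by mitochondrial DNA. Accessory subunits surround this core, and assembly factors help to build the enzyme without staying in it. The inner membrane is rich in cardiolipin, the lipid that the transacylase tafazzin, the product of Taz, remodels, and heart is a tissue in which the enzyme is abundant.

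Read counts per library were 26963288 to 35301909 in heart and 36429399 to 74361382 in muscle. Levels are given as CPM, the counts of a gene relative to the library total, scaled within each tissue by TMM factors. Taz had 11.02 to 12.9 CPM in Taz-KD hearts and 36.0 to 39.2 CPM in WT hearts, and 12.7 to 15.2 CPM in Taz-KD muscles against 45.9 to 54.8 CPM in WT muscles (exact two-sided permutation p = 0.00794 in each tissue, the smallest that 5 against 5 libraries can give). Cardiomyocyte markers summed to 37784 to 51796 CPM in Taz-KD hearts and 38434 to 52282 CPM in WT hearts. Such a sum is set by the most abundant markers. Of the 7, 6 had a negative log2 fold change in heart and 1 had 2.61, and none passed. In the WT heart R1800, 1 of the 7 was at 0. Fast fibre markers summed to 95915 to 162265 CPM in Taz-KD muscles and 38272 to 151994 CPM in WT muscles. Mitochondrially encoded genes took 9.52 to 12.8% of counts in Taz-KD hearts and 10.4 to 13.5% in WT hearts. The 4 hearts under 11%, which were R1793 and R1797 among Taz-KD and R3 and R1792 among WT, also had the lowest summed member levels of their genotype. In muscle the WT libraries A33 and A55 stood apart, A33 with an adipocyte marker sum of 2501 CPM and A55 with a slow fibre marker sum of 14413 CPM. The WT muscle A40 had a slow fibre sum of 7808 CPM, and A55 an adipocyte sum of 1186 CPM. All 5 slow fibre and all 4 adipocyte markers had negative values in Taz-KD muscle (median log2 fold changes -2.42 and -3.40), and none passed. The part of these markers in the complex I values was not tested.

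In the heart, the complex I transcripts called by the main test were all lower in Taz-KD. Of the 44 members, 11 were lower in Taz-KD hearts and 0 were higher at an adjusted p under 0.05 (edgeR quasi-likelihood test, Benjamini-Hochberg adjustment over all genes). The lower members were the core subunits Ndufs1, Ndufs3 and Ndufs7, the accessory subunits Ndufa1, Ndufa3, Ndufa9, Ndufa10, Ndufb5 and Ndufv3, and the assembly factors Ndufaf1 and Ndufaf4. That is 25.0% of members lower, where 10.3% of all 19486 genes tested were lower, and 0 higher, where 14.4% of all genes tested were higher. The median log2 fold change was -0.10 over the members and -0.02 over all genes tested. Of the 44, 33 had a negative value and 11 a positive one, where 52.2% of all genes tested had a negative value. The members share the same libraries, so their signs are not independent of each other. The largest positive value, 0.53 for Ndufaf2, did not pass in the main test. DESeq2 called 12 members lower and 1 higher. Summed over the members, Taz-KD hearts had 4514 ± 394 CPM and WT hearts 5088 ± 460.2 CPM (SD, n = 5 each). In single libraries the sums were 4069 to 4895 CPM in Taz-KD hearts and 4439 to 5639 CPM in WT hearts. With TMM factors the groups thus overlapped. Relative to library totals alone the members took 0.427 to 0.476% of counts in Taz-KD hearts and 0.479 to 0.540% in WT hearts. Those shares did not overlap. The Taz-KD mean was 88.7% of WT with TMM factors and 88.1% with library totals alone. Every Taz-KD heart lay below every WT heart for 7 members, a pattern that 7.05% of all genes tested showed. The opposite pattern, every Taz-KD heart above every WT heart, was seen for 0 members and for 11.3% of all genes tested.

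Each of the 11 kept a negative fold change in all 23 alternative analyses. These reuse the libraries in which the 11 were called, so a kept sign is not independent support. In the leave-one-out fits 8 of the 11 kept their call whichever library was left out, and the exceptions were Ndufa3, Ndufv3 and Ndufaf4. When the 4 hearts low in mitochondrially encoded counts were left out, the same 11 members were lower, where 5.36% of all genes tested were. Among those 4 hearts alone, 2 against 2, none of the 44 reached the threshold, with a median log2 fold change of -0.09, and of all genes tested there 1.35% were lower and 3.61% higher. In 1 fit of all 20 libraries 5 of the 11 were called and 3.47% of all genes tested were lower. Ndufs3, with 33 counts over the 10 muscle libraries, was among those not called there (edgeR adjusted p = 0.567). The part of its low muscle counts in that was not tested. With library totals alone 17 members were lower and 1 was higher, against 9.95% and 12.9% of all genes tested. Endothelial markers moved with genotype: their 5 genes summed to 683 to 762 CPM in Taz-KD hearts and 835 to 993 CPM in WT hearts, and 2 of the 5 (Pecam1 and Tie1) were lower by the test. Of the 4 red cell markers Alas2 and Hbb-bs were lower (median log2 fold change -0.64), and the list summed to 273 to 437 CPM in Taz-KD hearts and 370.4 to 715 CPM in WT hearts. Of the 4 slow fibre markers that could be tested Myl3 and Tnnt1 were lower (median -0.32), with sums over the list of 2782 to 4003 CPM in Taz-KD hearts and 3690 to 4827 CPM in WT hearts. The 5 fibroblast and 5 macrophage markers all had negative values (medians -0.28 and -0.29) and did not pass. Of the 2 brown adipocyte markers only Cidea could be tested, and it was higher. That list summed to 15.4 to 78.2 CPM in Taz-KD hearts, the highest in R1793, and 9.13 to 20.2 CPM in WT hearts. Of the 3 adipocyte markers tested in heart 2 had positive values and 1 a negative one, and none passed. The part of these cell types in the complex I differences was not tested. In bulk tissue, fewer cells of a type and less RNA per cell cannot be told apart.

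**Figure D1:**
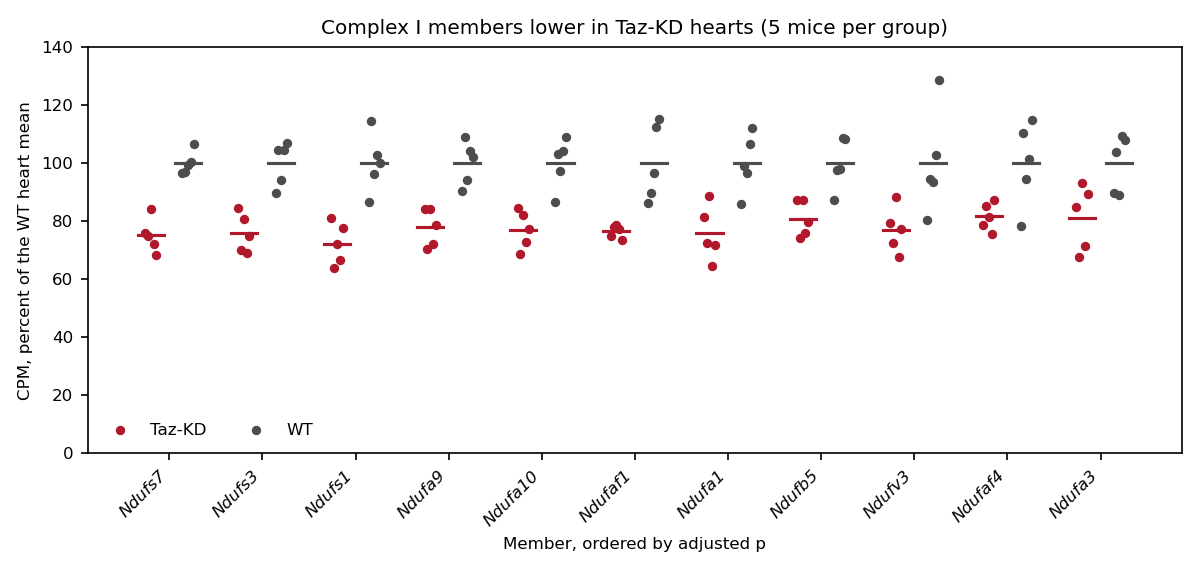
Levels of the 11 members that were lower in Taz-KD hearts, as a percentage of the WT heart mean of each gene, in single hearts (points) with the group mean (line), Taz-KD in red and WT in grey, 5 mice per group. Taz-KD means sit between 72.2 and 81.7% of WT, and the groups overlap for Ndufa1, Ndufv3, Ndufaf4 and Ndufa3.

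RefSeq promoter windows, running from 250 bases before to 50 bases after the transcript start on GRCm38.p6, were found for 40 of the 44 members, 10 of the 11 lower ones among them. These were searched on both strands for motifs tied in the literature to genes of respiration or of the amino acid response. The NRF1 motif GCGCATGCG was in 4 of the 40 (Ndufa8, Ndufa11, Ndufaf4, Ndufaf5) and in 1.95% of 27025 genes with a window. The YY1-type motif AAGATGGCG was in 6 of the 40 (Ndufa9, Ndufaf8, Ndufc1, Ndufs4, Ndufs6, Ndufs7) and in 1.64% of all genes. The ERR-type motif TCAAGGTCA and the amino acid response element TGATGNAAT were in 0 of the 40, against 0.466% and 1.08% of all genes. Either of the motifs that were found stood in 3 of the 10 lower members: NRF1 in 1 and YY1-type in 2. Of the 30 other members with a window, 3 held NRF1 and 4 held YY1-type letters. The windows of the 3 lower members with a motif are printed below 5′ to 3′ on the strand of the gene, with the motif in capitals. These show where the letters lie in members that were lower in Taz-KD hearts. They are Ndufs7 (chr10:80249199-80249498, plus strand), Ndufa9 (chr6:126849095-126849394, minus strand) and Ndufaf4 (chr4:24897833-24898132, plus strand).
Ndufs7: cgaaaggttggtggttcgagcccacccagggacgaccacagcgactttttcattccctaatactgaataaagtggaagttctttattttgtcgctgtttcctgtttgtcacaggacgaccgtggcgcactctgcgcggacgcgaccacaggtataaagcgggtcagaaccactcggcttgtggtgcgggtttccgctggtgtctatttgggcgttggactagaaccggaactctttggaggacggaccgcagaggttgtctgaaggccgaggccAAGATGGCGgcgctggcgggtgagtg
Ndufa9: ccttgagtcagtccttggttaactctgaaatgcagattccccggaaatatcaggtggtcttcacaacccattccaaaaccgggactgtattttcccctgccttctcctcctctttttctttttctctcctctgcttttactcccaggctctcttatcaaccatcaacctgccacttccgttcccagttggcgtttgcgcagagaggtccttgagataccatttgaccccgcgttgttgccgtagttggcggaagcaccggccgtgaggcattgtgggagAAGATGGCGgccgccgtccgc
Ndufaf4: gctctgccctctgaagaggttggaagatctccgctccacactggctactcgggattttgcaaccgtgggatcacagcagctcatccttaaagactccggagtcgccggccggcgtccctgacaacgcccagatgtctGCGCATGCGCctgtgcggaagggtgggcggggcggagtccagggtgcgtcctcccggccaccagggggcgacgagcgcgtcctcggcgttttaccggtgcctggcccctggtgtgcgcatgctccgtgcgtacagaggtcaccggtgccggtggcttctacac
In Ndufs7 the YY1-type letters begin 24 bases past the start and in Ndufa9 29 bases past it, while in Ndufaf4 the NRF1 letters, which read as a match on each strand with an overlap, lie before the start. A match of letters is a description of the window and not a binding site.

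Among the roles, the core of the matrix arm showed the largest share of lower members. The roles hold few genes, and their shares were not compared by a test. All 6 core genes described had a negative log2 fold change in heart, and their median was -0.29. By the test 3 of the 6 were lower, where 10.3% of all genes tested were. Ndufs1 (ENSMUSG00000025968, chr1:63143596-63176833), the largest core subunit and a carrier of iron-sulphur clusters, had 422, 333, 376, 347 and 404 CPM in Taz-KD hearts and 451, 598, 502, 535 and 521 CPM in WT hearts. The groups did not overlap, and the log2 fold change of -0.47 (SE 0.0884, adjusted p = 0.00216) was the lowest of these members. Ndufs7 (ENSMUSG00000020153, chr10:80249121-80256794), which holds the last iron-sulphur cluster before ubiquinone and whose promoter window is printed above, had 126, 124, 139.6, 119.6 and 113 CPM in Taz-KD hearts and 160.2, 161, 165, 167 and 177 CPM in WT hearts. It had the smallest adjusted p of the members (0.000456), at a log2 fold change of -0.41 (SE 0.0623) and with no overlap between the groups. Ndufs3 (ENSMUSG00000005510, chr2:90894634-90904827), a structural core subunit of the matrix arm, had 127, 105, 121, 103 and 112 CPM in Taz-KD hearts, against 135, 157, 141, 157 and 160.2 CPM in WT hearts. The groups were separate but close at their edges, R2 among Taz-KD and R3 among WT, and the log2 fold change was -0.40 (SE 0.0739, adjusted p = 0.00192). The remaining core genes did not pass: Ndufv1, which binds NADH and the flavin, had a log2 fold change of -0.19 (adjusted p = 0.0739). The iron-sulphur subunits Ndufs8 and Ndufv2 were at -0.18 (adjusted p = 0.0726) and -0.16 (adjusted p = 0.186).

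Accessory subunits of the matrix arm were mixed: 2 of 9 were lower, where 10.3% of all genes tested were. Of the 9, 5 had a negative value and the median log2 fold change was -0.08. Ndufa9 (ENSMUSG00000000399, chr6:126821721-126849136), which sits near the junction of the arms, had 185, 155, 185, 159 and 173 CPM in Taz-KD hearts and 199, 239.6, 207, 229 and 225 CPM in WT hearts. No Taz-KD heart reached the WT range (log2 fold change -0.36, SE 0.0732, adjusted p = 0.00348). Ndufv3 (ENSMUSG00000024038, chr17:31520115-31531331), a subunit at the tip of the matrix arm with a short and a long isoform, had 66.3, 60.7, 74.0, 56.5 and 64.7 CPM in Taz-KD hearts, against 67.2, 79.2, 78.3, 86.1 and 108 CPM in WT hearts. One Taz-KD heart, R1796, lay above the lowest WT heart, R3, and the WT values were spread by R1800 (log2 fold change -0.38, SE 0.113, adjusted p = 0.0296). This call was lost without R2, R1793, R1797, R1798, R1795 or R1800, and over all single libraries left out the adjusted p was 0.00945 to 0.0677. Ndufs6, Ndufs4 and Ndufa6 had log2 fold changes of -0.20, -0.10 and -0.08 and did not pass, and Ndufa7, Ndufa2 and Ndufa5 had 0.01, 0.11 and 0.23. Ndufa5 passed as higher only without R1800 (adjusted p = 0.0496). Ndufa12, an accessory subunit that takes the place of the assembly factor Ndufaf2 late in assembly, had 74.0, 82.1, 81.9, 46.8 and 57.2 CPM in Taz-KD hearts and 34.8, 41.8, 71.5, 40.9 and 67.7 CPM in WT hearts, which overlap widely (log2 fold change 0.41, SE 0.238, adjusted p = 0.244).

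Of the 19 accessory subunits of the membrane arm, 4 were lower, where 10.3% of all genes tested were. A negative value was seen for 14 of the 19, and the median log2 fold change was -0.07. Ndufa10 (ENSMUSG00000026260, chr1:92439010-92473860), a nucleotide-binding-fold subunit on the matrix face of the membrane arm, had 287, 233, 279, 247 and 262 CPM in Taz-KD hearts and 294, 349.8, 329.9, 354 and 371 CPM in WT hearts. The groups were apart, with R2 and R3 nearest to each other (log2 fold change -0.38, SE 0.0785, adjusted p = 0.00407). Ndufa1 (ENSMUSG00000016427, chrX:37187588-37191163), a small membrane subunit encoded on the X chromosome, had 46.0, 40.9, 50.002, 36.5 and 40.6 CPM in Taz-KD hearts, against 48.4, 55.8, 54.4, 60.2 and 63.3 CPM in WT hearts. Only R1796 among Taz-KD hearts exceeded a WT heart, R3, and the log2 fold change was -0.40 (SE 0.0928, adjusted p = 0.00771).

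Ndufb5 (ENSMUSG00000027673, chr3:32736990-32751566), a subunit of the far membrane arm, had 149, 127, 149, 129 and 136 CPM in Taz-KD hearts and 149, 166, 167, 185 and 185 CPM in WT hearts. The groups touched at 149 CPM without crossing (log2 fold change -0.31, SE 0.0745, adjusted p = 0.0099). An exon stretch of 12.3% of Ndufb5 is shared with Mrpl47 on the other strand. Ndufa3 (ENSMUSG00000035674, chr7:3617373-3620327), a small accessory subunit, had 69.8, 55.8, 76.6, 58.8 and 73.5 CPM in Taz-KD hearts, against 74.0, 85.4, 73.4, 90.2 and 89.0 CPM in WT hearts. The groups overlapped, and the log2 fold change of -0.30 (SE 0.0977, adjusted p = 0.0405) lay near the threshold. Without R2, R1793, R1797, R1791, R1795 or R1800 Ndufa3 no longer passed, and over all single libraries left out the adjusted p was 0.0273 to 0.0972.

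The other 15 membrane arm genes did not pass. Ndufb3, Ndufc1, Ndufb11, Ndufa13, Ndufa8, Ndufb8, Ndufb4, Ndufb7, Ndufb2 and Ndufb6 had log2 fold changes of -0.24 to -0.02, and Ndufc2, Ndufs5, Ndufb9, Ndufa11 and Ndufb10 had 0.02 to 0.26. Counts of Ndufb6 and Ndufa13 are uncertain if strand was not used, since 39% and 30.0% of their exon bases are shared with Smim27 and Tssk6 on the other strand. Ndufab1, the mitochondrial acyl carrier protein found in both arms, was at -0.21 (adjusted p = 0.128). Ndufa4, first described as a complex I subunit and now counted to complex IV, was at -0.16 (adjusted p = 0.258).

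Assembly factors were expressed at low levels, with a median log2 fold change of -0.03 in heart. Lower in Taz-KD hearts were 2 of the 8, where 10.3% of all genes tested were lower. Ndufaf1 (ENSMUSG00000027305, chr2:119655446-119662827), part of the assembly complex for the membrane arm, had 20.9, 21.7, 21.9, 21.5 and 20.5 CPM in Taz-KD hearts and 24.0, 24.9, 26.8, 31.2 and 32.0 CPM in WT hearts. The Taz-KD values lay within a narrow band under all WT values, and the log2 fold change was -0.38 (SE 0.0842, adjusted p = 0.00541). Ndufaf4 (ENSMUSG00000028261, chr4:24898083-24905001), which acts early in matrix arm assembly, had 38.3, 41.5, 39.7, 36.8 and 42.5 CPM in Taz-KD hearts, against 38.2, 53.7, 46.1, 49.4 and 55.9 CPM in WT hearts. A single WT heart, R3, lay among the Taz-KD values (log2 fold change -0.29, SE 0.0932, adjusted p = 0.0376). Of the 10 single libraries left out, only R1798 and R3 left Ndufaf4 under the threshold, and the adjusted p was 0.00363 to 0.0895 over all of them.

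Ndufaf2, a factor of late assembly, was the one member with a positive value near the threshold: it had 7.24, 4.64, 5.80, 4.11 and 7.35 CPM in Taz-KD hearts and 3.54, 3.65, 3.24, 5.04 and 4.75 CPM in WT hearts. Higher values stood in R2, R1796 and R1798, while R1793 and R1797 lay within the WT range (log2 fold change 0.53, SE 0.186, adjusted p = 0.0562). Ndufaf2 did pass, as higher, with DESeq2 (adjusted p = 0.0398), library totals alone (0.0402) or no filter (0.0483), and in edgeR without R1793, R1797 or R1795 (0.0231 to 0.133 over all single libraries left out). Of its exon bases 65.6% are shared with the long non-coding gene B230220B15Rik on the other strand, so its level is uncertain where strand was not used in counting. Ndufaf6 averaged 8.86 ± 0.812 CPM in Taz-KD hearts and 9.38 ± 0.873 CPM in WT hearts. Ndufaf3, the partner of Ndufaf4 in assembly, averaged 12.8 ± 1.13 CPM in Taz-KD hearts and 13.2 ± 1.87 CPM in WT hearts. Both differences were smaller than the SD. Ndufaf7, an arginine methyltransferase that acts during assembly, averaged 15.3 ± 1.20 CPM in Taz-KD hearts and 15.4 ± 0.635 CPM in WT hearts. Ndufaf8, the partner of Ndufaf5, averaged 11.4 ± 0.805 CPM in Taz-KD hearts and 11.5 ± 1.07 CPM in WT hearts, and Ndufaf5 11.3 ± 0.858 CPM in Taz-KD hearts and 11.2 ± 1.19 CPM in WT hearts (SD, n = 5 each).

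**Figure D2:**
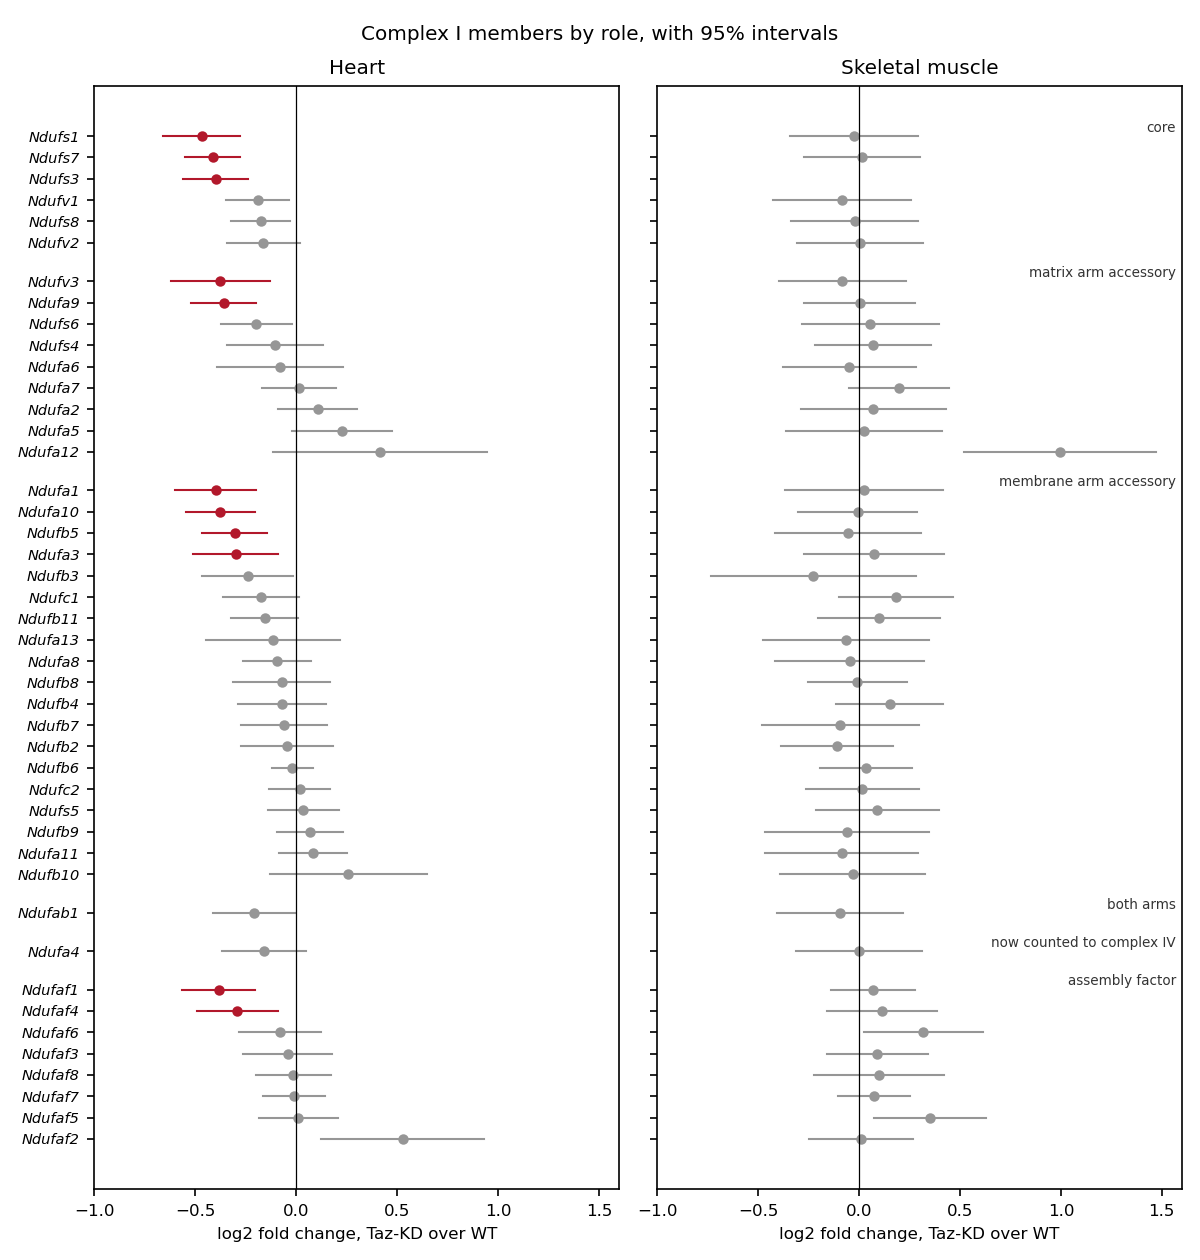
Log2 fold change of Taz-KD over WT with its 95% interval for each member, in heart (left) and skeletal muscle (right), grouped by role and ordered within a role by the heart value. Red marks the 11 members past an adjusted p of 0.05, all in heart and all lower. Ndufs3 has no muscle point because its counts there were too low to test.

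Genes that work with the members were read from lists of the same kind. Over all genes tested in heart, the shares to set beside these counts were 10.3% lower and 14.4% higher. The 7 mitochondrially encoded complex I subunits, the proton pumps and their neighbours, gave 0 lower and 0 higher in Taz-KD hearts, with a median log2 fold change of 0.10 and values of -0.44 (mt-Nd4l) to 0.34 (mt-Nd6). Of 13 other nuclear assembly genes of complex I, 2 were lower, Foxred1 at -0.29 (adjusted p = 0.00563) and Tmem186 at -0.43 (adjusted p = 0.00157). Acad9, which forms an assembly complex with Ndufaf1 and Ecsit, was higher at 0.25 (adjusted p = 0.00966). Among nuclear genes of the other complexes, 2 of 4 were lower in complex II (median -0.19), 2 of 9 in complex III (median -0.17) and 2 of 16 in complex V (median -0.03), where 1 was higher. In complex IV 3 of 13 were lower and 3 were higher (median 0.07). Of 10 genes listed for mitochondrial content, regulators such as Ppargc1a and Nrf1 among them, 3 were higher (Hspd1, Tomm20 and Vdac2). None of the 10 was lower, and the median was 0.10. Values were positive for 6 and negative for 4 (Tfam -0.17, Ppargc1a -0.16, Nrf1 -0.13 and Cs -0.05). Mitochondrial content itself was not measured.

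Lower members tended to have long coding sequences, a split that was drawn after their values were seen. Among the 7 members with a longest coding sequence of 1000 bases or more, 4 were lower (Ndufs1, Ndufa9, Ndufa10 and, by its long isoform, Ndufv3) and the median log2 fold change was -0.36, while 11.96% of 9725 other protein-coding genes of that length were lower, with a median of -0.01. From 500 to 1000 bases 5 of 15 members were lower with a median of -0.10, against 10.2% of 3180 other genes with a median of 0.05. Under 500 bases 2 of 22 members, Ndufa1 and Ndufa3, were lower with a median of -0.07, against 10.3% of 1246 other genes with a median of 0.03. Across the 44 members Spearman's rho between coding length and log2 fold change was -0.32, and across 14196 protein-coding genes it was -0.08. The points share the same libraries, and role goes with length, since the core genes are among the longer ones.

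In skeletal muscle 0 of the 43 members that could be tested differed between Taz-KD and WT at an adjusted p under 0.05 by edgeR. Over all genes 0.0186% of 16145 passed. At an unadjusted p under 0.05 there were 3 members, Ndufa12, Ndufaf5 and Ndufaf6, all with positive values, where 14.9% of all genes tested had such a p. DESeq2 called 1 member, Ndufa12, as higher, and 0.911% of all genes (0.239% as higher). By limma-voom the calls were 0 members and 0.0186% of all genes. The median log2 fold change was 0.01 over the members, 18 of the 43 had a negative value, and the core median was -0.02. Of all genes tested in muscle 52.3% had a negative value. Summed over the members, Taz-KD muscles had 5612 ± 455 CPM and WT muscles 5559 ± 1000.5 CPM (SD, n = 5 each). WT muscles spread widely, with the lowest sum, 4395 CPM, in A33 and the highest, 7112 CPM, in A55. The order of the means depended on scaling: Taz-KD muscles were at 101% of WT with TMM factors, 99.1% with upper-quartile factors and 91.8% with library totals alone. Intervals were broad, for example -0.34 to 0.29 for Ndufs1.

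Ndufa12 (ENSMUSG00000020022, chr10:94198720-94221443), singled out after its values were seen, had 94.97, 145, 77.0, 138 and 123 CPM in Taz-KD muscles, against 35.8, 64.8, 70.0, 54.9 and 64.4 CPM in WT muscles. Every Taz-KD muscle lay above every WT muscle. It was the 1 member with that pattern, which 1.06% of all genes tested in muscle showed, and 0 members had the opposite one, which 1.08% of all genes showed. The log2 fold change was 0.996 (SE 0.215, 95% interval 0.52 to 1.47) with an adjusted p of 0.311 by edgeR and 0.00788 by DESeq2. Over all 21 alternatives its adjusted p was 0.00788 to 0.937, and DESeq2 was the only one to call it. Ndufaf5, which hydroxylates an arginine of the Ndufs7 protein during assembly, averaged 37.4 ± 4.44 CPM in Taz-KD muscles and 29.3 ± 4.74 CPM in WT muscles, and Ndufaf6 21.2 ± 2.03 CPM in Taz-KD muscles and 17.0 ± 3.22 CPM in WT muscles (SD, n = 5 each). These overlapped and did not pass (adjusted p = 0.311 for Ndufaf5 and 0.323 for Ndufaf6, edgeR).

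The remaining assembly factors had log2 fold changes of 0.01 (Ndufaf2) to 0.11 (Ndufaf4) in muscle, and none passed. Ndufaf1 averaged 37.2 ± 2.64 CPM in Taz-KD muscles and 35.6 ± 4.07 CPM in WT muscles, and Ndufaf4 42.6 ± 3.86 CPM in Taz-KD muscles and 39.4 ± 6.69 CPM in WT muscles. Ndufaf2 averaged 7.18 ± 0.775 CPM in Taz-KD muscles and 7.13 ± 0.714 CPM in WT muscles, a difference well inside the SD. Ndufaf3 averaged 11.3 ± 1.34 CPM in Taz-KD muscles and 10.6 ± 1.20 CPM in WT muscles, Ndufaf7 16.8 ± 1.31 CPM in Taz-KD muscles and 15.9 ± 0.637 CPM in WT muscles, and Ndufaf8 14.5 ± 1.95 CPM in Taz-KD muscles and 13.5 ± 2.67 CPM in WT muscles (SD, n = 5 each). All 8 assembly factors had a positive value, with a median of 0.09. Over all genes tested the median was -0.02, and 52.3% had a negative value. In no case did all Taz-KD muscles lie above all WT muscles.

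The muscle level of Ndufs3 could not be read. It had 33 counts over the 10 muscle libraries and 40117 over the 10 heart libraries, and genes on both sides of it on chromosome 2 were at or near 0 in muscle as well, among them Kbtbd4 with 0 counts in muscle and 5490 in heart and Celf1 with 1 count in muscle and 39974 in heart.

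Whether the knockdown effect differed between tissues was tested in 1 fit of all 20 libraries, as the heart log2 fold change minus the muscle log2 fold change. Of the 44 members 1, Ndufaf1, was called, as lower, where 4.62% of 20612 genes tested were called (320 lower and 632 higher, and 216 lower and 851 higher with library totals alone). Without Ndufs3, 37 of 43 members had a negative difference and their median was -0.22, against a median of 0.02 over all genes. Of all genes tested 48.2% had a negative difference, and the members, read from the same libraries, are not independent of each other. Ndufaf1 had 20.5 to 21.9 CPM in Taz-KD hearts, against 24.0 to 32.0 CPM in WT hearts, and 34.04 to 40.6 CPM in Taz-KD muscles, against 31.2 to 41.6 CPM in WT muscles. The heart groups were apart and the muscle groups overlapped, and the difference of the effects was -0.52 on the log2 scale (SE 0.140, adjusted p = 0.0380). It held in 6 of 20 fits with 1 library left out, where the adjusted p was 0.0160 to 0.0804, and it was lost without R2, R1793, R1796, R1797, R1798, R1792, R1795, R1800, A33, A51, A55, A56, A34 or A39. Without A33 and A55 together its adjusted p was 0.106, and without the 4 hearts low in mitochondrially encoded counts 0.0911. The core subunits Ndufs7 (-0.49, SE 0.152, adjusted p = 0.0731) and Ndufs1 (-0.51, SE 0.184, adjusted p = 0.127) did not pass in this fit. For these genes a lower level in Taz-KD heart only is therefore not established by the test of the difference.

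**Figure D3:**
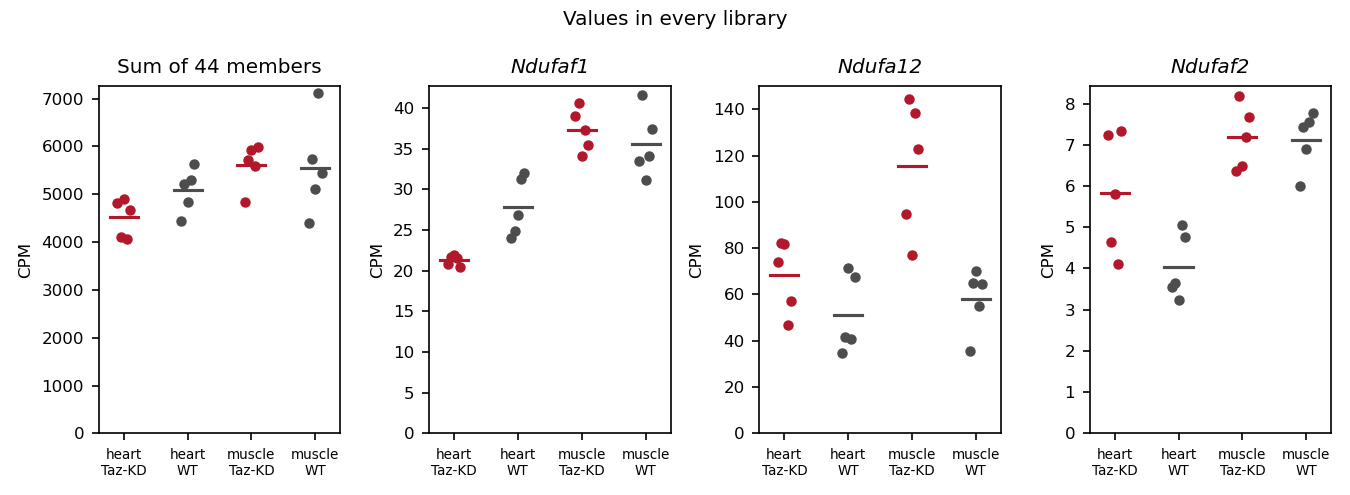
CPM in every library (points) with the group mean (line) for the sum of the 44 members, Ndufaf1, Ndufa12 and Ndufaf2, Taz-KD in red and WT in grey, in heart and muscle with 5 mice per group; CPM was scaled within each tissue. Ndufaf1 is apart between genotypes in heart and Ndufa12 in muscle, while the sums, with TMM factors, overlap in both tissues.

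Levels per kilobase of merged exon, a measure that allows genes to be set against each other, spread widely among the members. In WT hearts the median member was at 68.01 CPM per kilobase and the range was 1.36 to 229. Highest was Ndufb9, at 229 ± 17.8, followed among the members described by Ndufa4 at 194 ± 22.03, and their intervals of 1 SD overlapped. In single hearts Ndufb9 had 269, 227, 262, 223 and 257 CPM in Taz-KD and 214, 227, 229, 251 and 259 CPM in WT. Those groups overlapped (log2 fold change 0.07, adjusted p = 0.549), and 19.5% of its exon bases are shared with Gm49356 on the same strand, so its level is uncertain. Lowest was Ndufaf2 at 1.36 ± 0.269 CPM per kilobase, with its CPM in each heart given above.

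In WT muscles the order was headed by Ndufa4, at 283 ± 48.5 CPM per kilobase, then, among the members described, Ndufb11 at 194 ± 32.8, whose interval of 1 SD lay below that of Ndufa4. Ndufa4 had 382, 451, 344, 397 and 381 CPM in Taz-KD muscles and 308, 397, 375, 494 and 379.6 CPM in WT muscles, with complete overlap. Leaving aside Ndufs3, the lowest was Ndufb2, at 1.93 ± 0.264 CPM per kilobase, which had 9.61, 11.2, 8.17, 11.1 and 10.2 CPM in Taz-KD muscles and 9.60, 11.3, 9.53, 13.1 and 10.7 CPM in WT muscles. The merged exons of Ndufb2 reach 5628 bases for a coding sequence of 315, which lowers its value per kilobase. Assembly factors filled 8 of the 9 lowest places in WT hearts. The tables were scaled separately, so values in heart and muscle are set side by side here and not tested.

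**Figure D4:**
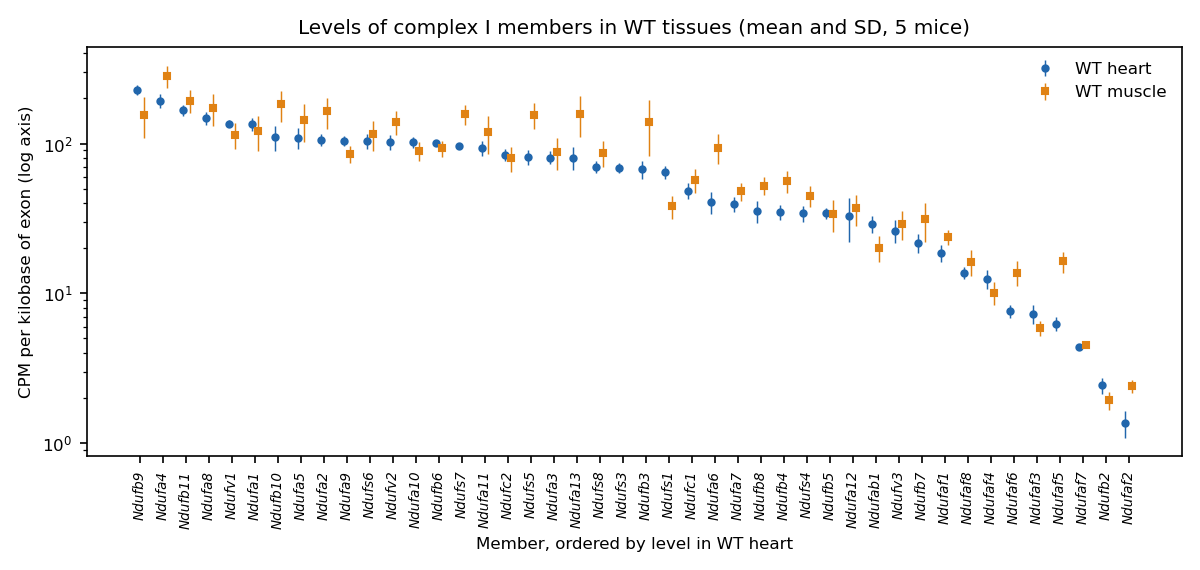
Mean level of each member in WT heart (blue circles) and WT muscle (orange squares), in CPM per kilobase of exon on a log axis, with SD over 5 mice; members run from the highest to the lowest in WT heart, and CPM was scaled within each tissue. Assembly factors and Ndufb2 stand at the low end, and the muscle value of Ndufs3 is not drawn.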

How the data were processed

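Ribosome-depleted, strand-marking libraries (150 bp paired ends) were sequenced from 20 mouse tissues. Per the labels and the methods of the study, the authors aligned reads with STAR to GRCm38/mm10 and counted them per gene with featureCounts 1.6.4; the deposited values are raw counts, one table per tissue. For the strand setting and annotation release, the sources used here give nothing. There were 420 genes in the heart table alone and 7152 in the muscle table alone.

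Symbols, exons and coordinates came from GENCODE M21. Counts were tested per tissue with edgeR 4.0.16 (TMM factors, filterByExpr, robust quasi-likelihood F test), with Benjamini-Hochberg adjustment over all genes and a threshold of 0.05, and the tissue difference in 1 fit of 20 libraries. Alternatives were DESeq2 1.42.0, limma-voom (limma 3.58.1), other scaling factors, other filters (none, or at least 10 counts in every library), no robust estimation, no mitochondrially encoded genes, 1 joint fit, and each library left out. Leaving out or keeping alone the 4 hearts under 11% mitochondrially encoded counts, and leaving out A33 and A55, were added after seeing the data. The test was also run on counts simulated gene by gene from its own fitted dispersions. Such counts carry no shift shared by the genes of a library, and the outcome is not given here. SE is the log2 fold change over the root of F; intervals are 95%.

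Of the genes that met the definition 1 is not reported here, and counts, sums and medians of members leave it out. The members and lists were chosen with earlier results of these data known. Values in every library are given for the members called (at most 12 per tissue), for the difference between tissues, and for the highest and lowest member per kilobase; assembly factors are all given by value. Labels name each sample as 1 animal code, and p-values measure the spread between these libraries.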

Additional observations from a re-analysis of the deposited data

Results flagged for a closer look

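The Taz-KD effect on Ndufaf1 differed between heart and muscle by -0.52 on the log2 scale, in the edgeR test of the difference itself (adjusted p = 0.0380). Ndufaf1 was the 1 member called of the 44 tested (2.27%), where 4.62% of 20612 genes tested were called in either direction. The share of members called was thus not above that of all genes. This call held in 6 of 20 fits with 1 library left out, and it was lost with library totals alone (adjusted p = 0.166) and with no filter (0.0754).

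Among 178 groups of 5 libraries, 9 held a value far from the others, and chance alone marks about 5% of such groups. The Taz-KD muscle A52 was the lowest of its group in 4 of them, with Ndufa11 at 103.9 CPM (next 126), Ndufb9 at 125 CPM (next 158), Ndufs8 at 89.5 CPM (next 111) and Ndufaf4 at 35.7 CPM (next 43.7). In Taz-KD hearts Ndufa8 reached 136 CPM in R1796 (next 119) and Ndufb2 reached 16.2 CPM in R1798 (next 13.1). In WT muscles Ndufb3 reached 179 CPM in A55 (next 107), and Ndufaf7 was lowest in A51, at 14.8 CPM (next 16.0). Taz was highest among Taz-KD muscles in A58, at 15.2 CPM (next 13.4).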

How the results depend on the processing

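In heart the count of members called was 11 and stayed within 1.5 times of that except with library totals alone (18, of which 17 lower), in 1 fit of all 20 libraries (5, all lower) and among the 4 hearts low in mitochondrially encoded counts alone (0). With 1 heart left out it was 8 to 14. The median log2 fold change of the members was -0.19 without R2 and R3, which have animal codes apart from the rest, and -0.16 to -0.05 with 1 library left out. In muscle the count was 0 in all alternatives but DESeq2, with 1. For the difference between tissues the count was 1 by edgeR, 2 by DESeq2, 1 by limma-voom and 0 with library totals alone, with no filter or without the 4 hearts above. With 1 library left out it was 0 to 2. Library totals alone moved the median of all genes in this difference to 0.21 (0.02 with TMM factors) and that of the members to -0.0262, a distance of -0.23, against -0.24 with TMM factors. Taz was lower in Taz-KD in all alternatives. The cause of these changes was not tested. No paired analysis was possible because the labels give the groups no shared replicate numbers.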

Other observations

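The run of genes on chromosome 2 (GRCm38) around Ndufs3 had counts in heart and hardly any in muscle, over the 10 libraries of each tissue. C1qtnf4 had 592 counts in heart and 0 in muscle, Ptpmt1 6702 in heart and 1 in muscle, Gm17661 1127 in heart and 0 in muscle, and Rapsn, a gene of the neuromuscular junction, 2580 in heart and 3 in muscle. Mtch2 on the one side had 26802 counts in heart and 21563 in muscle, and Psmc3 on the other had 32110 in heart and 99544 in muscle.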
